A study of Homo sapiens with 12 samples.

Results

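The imprinted miRNA cluster of chromosome band 14q32 was examined in human cells rescued with different forms of DICER, the nuclease that cuts miRNA precursors. Its members were every deposited miRNA name carrying 1 of 44 listed numbers, with any letter or arm suffix. This gave 77 of the 1971 miRNA names listed for either cell line, and names were found for 41 of the 44 numbers (all but miR-300, miR-668 and miR-1193). Of the members, 36 carry the suffix 5p, 36 carry 3p, and 5 (miR-496, miR-543, miR-544a, miR-665 and miR-1197) carry no suffix. The HCT116 libraries list all 77 among 1854 names, and the HEK293T libraries list 19 among 1611.

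Small RNA was sequenced by AQ-seq, a library method designed to reduce ligation bias, from 100 µg of total RNA per library. HCT116 cells come from a human colorectal carcinoma, and HEK293T cells from human embryonic kidney. Each was rescued with DICER WT, with a form lacking the double-stranded RNA-binding domain (ΔdsRBD, here the dsRBD deletion), or with a form named AA, whose change is not stated in the labels. Each of the 6 groups held 2 libraries, and nothing says that they came from separate cultures, so a p-value here reflects only how far such library pairs spread. All groups are rescued cells, and neither the host cells' own DICER nor the amount of each introduced form is stated in the labels. An effect of a form and one of its amount therefore cannot be told apart, and neither can fewer cells making a miRNA and less of it per cell.

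In the 14q32 domain the parental copies are expressed unequally. The paternal copy makes the mRNAs of DLK1, RTL1 and DIO3, and the maternal copy makes the noncoding RNAs MEG3, MEG8 and MEG9 together with the miRNAs. The miRNAs are known for high levels in brain, placenta and embryonic tissue and for low levels in many tumour lines. DICER removes the loop of each hairpin and leaves a duplex whose strands are the 5p and the 3p miRNA, of which usually 1 is loaded into an Argonaute protein and kept. Bases 2 to 8 of the loaded strand, the seed, pair with target mRNAs.

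The mature sequences of the members on which the results turn are given 5′ to 3′ as RefSeq lists them for GRCh38.p14, with the seed in capitals. The members first shown are both arms of miR-369 and of miR-154, the most abundant hairpins of the cluster here. They are followed by miR-487a-3p, which shares the seed of miR-154-3p, and by its relative miR-487b-3p.
miR-369-5p: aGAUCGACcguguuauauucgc
miR-369-3p: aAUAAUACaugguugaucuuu
miR-154-5p: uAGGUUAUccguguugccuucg
miR-154-3p: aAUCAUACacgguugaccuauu
miR-487a-3p: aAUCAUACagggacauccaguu
miR-487b-3p: aAUCGUACagggucauccacuu

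The miR-376 members come next because miR-376a-3p and miR-376b-3p share a seed that miR-376c-3p lacks, and because some passed the test with the deletion and others did not. MiR-376a-3p lies 2 edits from miR-376b-3p and 2 from miR-376c-3p over the full length.
miR-376a-3p: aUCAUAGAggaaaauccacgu
miR-376b-3p: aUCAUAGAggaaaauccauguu
miR-376c-3p: aACAUAGAggaaauuccacgu
miR-376a-5p: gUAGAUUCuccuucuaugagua

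The remaining sequences are those of the other members that differed between the dsRBD deletion and WT in HCT116. None of their seeds was shared with another sequence printed here.
miR-329-3p: aACACACCugguuaaccucuuu
miR-410-3p: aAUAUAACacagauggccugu
miR-485-5p: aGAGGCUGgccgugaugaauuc
miR-495-3p: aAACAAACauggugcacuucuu
miR-543: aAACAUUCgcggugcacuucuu
miR-654-3p: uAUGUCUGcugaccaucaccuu

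Over all members, 8 seeds were shared by at least 2 names, the largest group being miR-323b-5p, miR-410-5p and miR-494-5p. The median GC content of the mature sequence was 47.6% for the 36 5p names and 40.9% for the 36 3p names. A was the first base of 14 of the 5p names and 18 of the 3p names. The 5 names without a suffix all lie on the 3p side of their hairpin.

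All 77 members matched RefSeq and lie on the plus strand of chromosome 14, in 48 hairpins, and 3 names (miR-329-3p, miR-376a-3p and miR-1185-5p) come from 2 hairpins each. The hairpins run from chr14:100869060 to chr14:101066801 (GRCh38.p14), over 197.741 kb. An upstream block around RTL1 and MEG8 holds 13 names from 9 hairpins between 100869075 and 100911207. The block from miR-379 to miR-656 holds the other 64 names between 101022071 and 101066786. In GENCODE 29 the hairpins of miR-431, miR-433, miR-127, miR-432 and miR-136 lie opposite an exon of RTL1, whose mRNA they match as antisense. Counting each name at its first locus, 11 hairpins lie in introns of MEG8 alone, all of them in the block from miR-379 to miR-656. Of the upstream block only miR-370 lies in an intron of MEG8. Another 6 hairpins lie in introns of MIR381HG, 5 in introns of MEG9 and 1, that of miR-410, in an exon of MEG9.

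Library depth differed between the groups. MiRNA reads ranged from 4056722 to 4498886 with WT, 824987 to 1353117 with the deletion and 3157018 to 3551705 with AA in HCT116, and from 1059778 to 3552613 over the 6 HEK293T libraries. MiRNA reads per spike-in read were 274 and 367 with WT, 63.7 and 64.7 with the deletion and 210 and 206 with AA in HCT116. In HEK293T they were 82.6 and 80.9, 29.1 and 27.2, and 58.8 and 44.3. The lines' own markers separated them: miR-21-5p was at 310725 to 387192 CPM in HCT116 and 618 to 9714 in HEK293T, and miR-10a-5p at 7164 to 15738 and 53664 to 82286, while the epithelial markers miR-192-5p and miR-194-5p were higher in HEK293T than in HCT116.

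The cluster was a minor part of the small RNA of HCT116 and close to absent from HEK293T. In HCT116, 718 and 642 of the reads came from the 77 members with WT, 129 and 224 with the deletion, and 563 and 588 with AA. In HEK293T the counts were 6 and 14 with WT, 7 and 13 with the deletion, and 22 and 9 with AA. In reads per 1000000 miRNA reads (RPM) this was 160 and 158, 156 and 166, and 178 and 166 in HCT116, against 2.15 and 3.94, 6.61 and 10.6, and 7.59 and 6.25 in HEK293T. Every HCT116 library thus lay above every HEK293T library. With WT the summed members were 50.4-fold higher in HCT116 by RPM (exact 95% interval 32.5 to 82.8, counting error only).

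**Figure D1:**
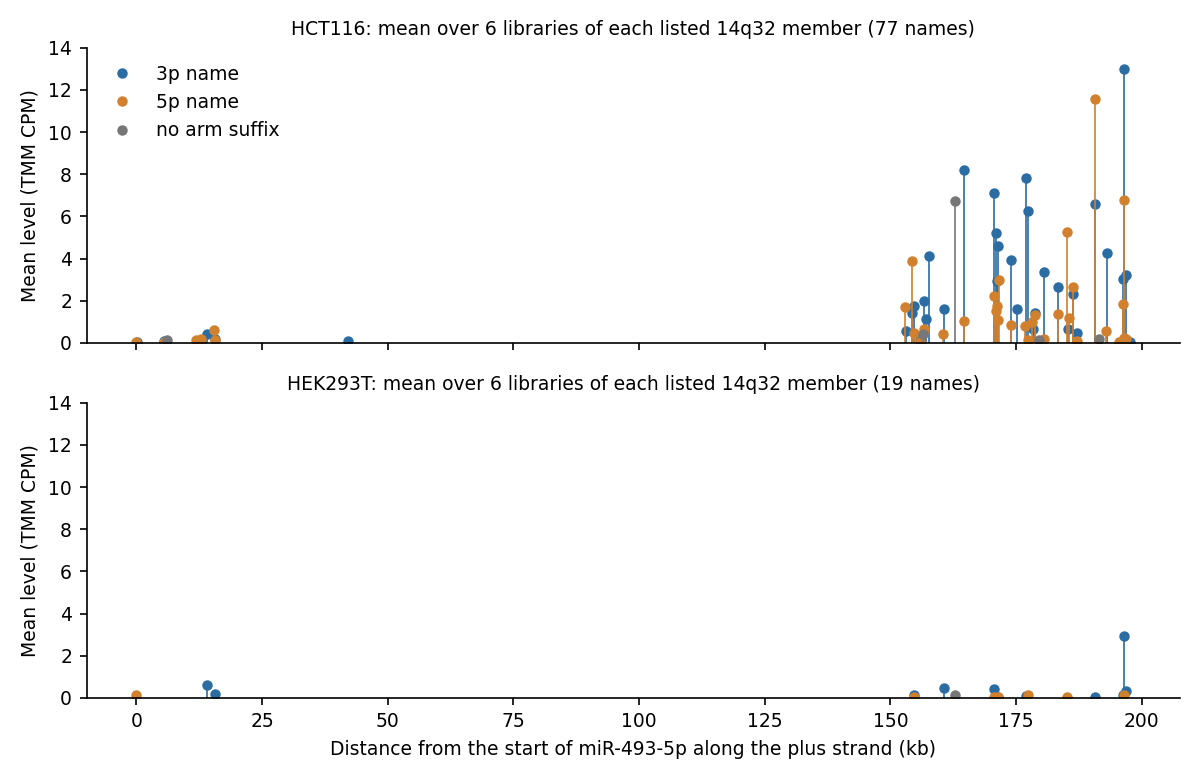
Mean level over the 6 libraries of each line (TMM-scaled CPM, vertical axis) of every listed 14q32 member, by the distance of its mature start from that of miR-493-5p (kb, horizontal axis). The upstream block at the left stays near 0 in both lines, the block from miR-379 to miR-656 at the right carries the cluster in HCT116, and miR-369-3p is the tallest point in HEK293T at 2.94 CPM.

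Within HCT116 the reads were spread over many members of the downstream block. The miR-379 to miR-656 block held 2831 reads over the 6 libraries and the upstream block 33, with no upstream member above 5 reads in a library. The upstream block includes miR-127-3p, which is antisense to RTL1 and can direct cleavage of its mRNA, at 8 reads in total. MiR-134-5p, known as a regulator of dendritic spines through LIMK1, had 21 reads. The 12 most abundant members held 53.4% of the cluster's reads, and 20 of the 77 members had at most 3 reads in total.

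MiR-369-3p led the cluster in HCT116, with a mean of 13.0 CPM over the 6 libraries, which was rank 482 of 1854 names. CPM are the same unit after scaling by TMM, a method that sets the typical miRNA equal between libraries. Next came miR-154-5p at 11.6 CPM, miR-495-3p at 8.19, miR-381-3p at 7.81, miR-376c-3p at 7.13 and miR-369-5p at 6.78. MiR-543, miR-154-3p, miR-487b-3p, miR-382-5p, miR-376a-3p and miR-376b-3p followed at 6.72, 6.59, 6.26, 5.26, 5.22 and 4.58 CPM. Neighbours in this order differ by less than the larger of their SDs over the 6 libraries, and 8 of the 12 are 3p names. The highest count of any member in 1 library was 52 reads.

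MiR-369-3p was also the leading member in HEK293T. It had 2 and 6 reads with WT, 3 and 5 with the deletion and 10 and 7 with AA, a mean of 2.94 CPM at rank 650 of 1611. No other member exceeded 7 reads over the 6 HEK293T libraries. MiR-127-3p had 7, miR-410-3p 5 and miR-494-3p 4, and 15 of the 19 listed members had at most 3. MiR-376c-3p, miR-136-3p, miR-487b-5p, miR-409-3p, miR-299-3p, miR-493-5p, miR-412-5p and miR-543 complete the 12 highest, with 1 to 3 reads each.

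The number of members with a read followed depth. In HCT116 it was 59 and 65 with WT, 37 and 44 with the deletion, and 57 and 58 with AA. When all libraries are reduced in expectation to 824987 reads, it was 39.7 and 41.4, 37.0 and 38.8, and 42.5 and 42.6. Both deletion libraries still lay lowest.

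With the dsRBD deletion in HCT116, the cluster's share of miRNA reads stayed where it was with WT and its content changed arm. The summed 5p members were at 37.3 and 38.0 RPM with WT, 88.5 and 86.5 with the deletion, and 49.4 and 45.6 with AA. The summed 3p members were at 112 and 112 with WT, 64.2 and 74.6 with the deletion, and 120 and 112 with AA. The deletion libraries were the highest for 5p and the lowest for 3p, with no overlap with either other form. On the log2 scale of group means the deletion differed from WT by 1.22 for 5p and −0.69 for 3p, and the whole cluster by 0.02. The 5p difference turned to −1.11 and the 3p difference to −3.01 per spike-in read, so higher 5p sums hold only relative to other miRNAs. With 2 against 2 libraries an exact permutation test cannot reach the 0.05 threshold, and no p is given for these sums.

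The 3p share does not depend on scaling. Of the 5p and 3p reads of the members, 3p made up 75.0% and 74.6% with WT, 42.1% and 46.3% with the deletion, and 70.9% and 71.1% with AA. The 95% Wilson intervals, which cover counting error only, were 71.6% to 78.1% and 71.0% to 77.9% with WT and 33.8% to 50.8% and 39.8% to 53.0% with the deletion. The 2 forms' intervals did not overlap. All other miRNAs had a 3p share of 35.2% and 34.9% with WT, 14.8% and 16.7% with the deletion, and 34.3% and 34.2% with AA, so the deletion libraries were lowest there too. In HEK293T the share of the other miRNAs went the opposite way, from 42.9% and 40.3% with WT to 54.6% and 54.7% with the deletion. That share weighs each name by its reads and does not describe the typical name. By name, the median log2 fold change with the deletion there was −0.47 for 252 3p names and −0.24 for 256 5p names. Of 180 HEK293T hairpins tested for their ratio of 3p to 5p reads, 50 moved towards 3p and 54 towards 5p. The members' 3p share in HEK293T was 85.7% to 100% on at most 22 reads.

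**Figure D2:**
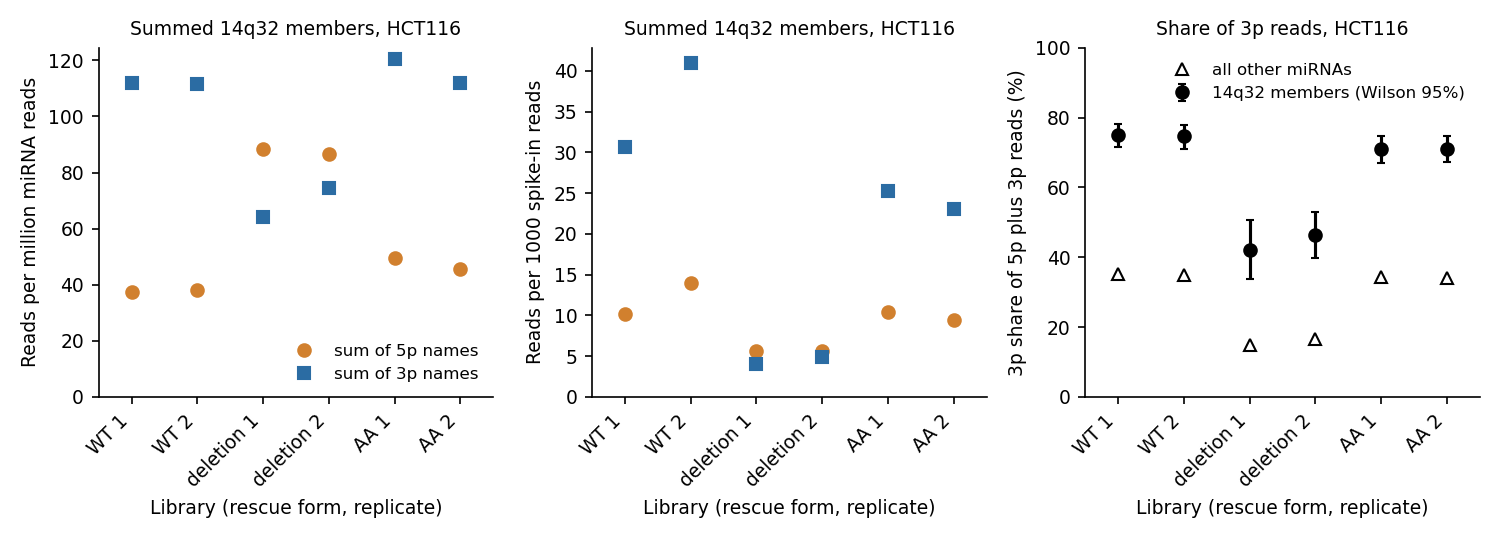
Summed 5p and 3p members in each HCT116 library in RPM (left) and per 1000 spike-in reads (centre), and the 3p share of their reads in percent (right, filled points with 95% Wilson intervals) beside that of all other miRNAs (open triangles). In the 2 deletion libraries 5p lies above 3p and the 3p share is 42.1% and 46.3%, against 70.9% or more in the other 4 libraries.

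The tests of single members asked which miRNAs carry this shift. With the deletion, 2 members rose and 9 fell in HCT116. Both that rose are 5p miRNAs, while 8 of the 9 that fell are 3p miRNAs and the ninth, miR-543, is the 3p-side strand of its hairpin. Among them miR-485-5p, miR-487a-3p and miR-654-3p passed the filter through only the group where they were higher. Without these, miR-369-5p is the only member that rose, and those that fell are again 3p names and miR-543. MiR-329-3p and miR-376a-3p had no read in either deletion library. The edgeR fit called 62.1% of all 795 names tested in this comparison (28.1% higher and 34.1% lower), so that 11 of 24 members is no larger a share than that of all names. Only 24 members, 6 of them 5p and 17 of them 3p, reached the filter of about 2.98 CPM in 2 libraries, and all 24 lie in the downstream block. Of the 24, 12 reached it in both WT but not both deletion libraries, and 4 the reverse, so the filter itself favours members that differ.

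Applied to the AA libraries alone, which are no side of this comparison, the filter left 16 members. Of these, 2 were higher (miR-369-5p and miR-154-5p) and 7 lower (6 3p names and miR-543), against 214 and 246 of all 667 names. MiR-485-5p, miR-487a-3p and miR-654-3p were not among the 16. In the main test each reached the filter in both libraries only of the group where it was higher. Their calls and adjusted p values therefore describe members selected for that group and add nothing to the pattern by arm. With no filter other than 10 reads in the 2 AA libraries together, both deletion libraries lay above both WT libraries for 5 of 12 5p members and below for 0, in TMM-scaled CPM. For 23 3p members these counts were 2 and 15. Of all 795 names of the main filter, 82.5% stood without overlap in either direction in TMM-scaled CPM. By arm these were 268 of 339 5p names and 268 of 311 3p names. In neither arm was the members' share larger, though the filters differ. Scaled by library totals, the members' counts above and below were 7 and 0 for 5p, and 4 and 12 for 3p. Per spike-in read the counts became 1 above and 8 below for 5p, and 0 and 22 for 3p. The share of all names without overlap was not counted per spike-in read. With spike-in scaling edgeR called 598 of all 795 names lower and 7 higher, so a fall on that scale is not particular to the members. Of the 5 5p members above WT in TMM-scaled CPM, miR-487a-5p stayed above per spike-in read, miR-154-5p lay below, and miR-369-5p, miR-409-5p and miR-485-5p overlapped with WT. The 15 3p members below WT in TMM-scaled CPM were all below it per spike-in read, and both 3p members above it, miR-154-3p and miR-655-3p, were below.

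The shift by arm is shared with other miRNAs. The 6 tested 5p members had a median log2 fold change of 0.52, beside 0.30 for all 339 5p names, of which 109 were higher and 86 lower. The 17 tested 3p members had a median of −1.84, beside −0.91 for all 311 3p names, of which 58 were higher and 150 lower. These medians rest on fitted values, including those of miR-329-3p and miR-376a-3p at 0 reads, and on a filter that favours members that differ. With the filter on the AA libraries alone, the median was 0.79 for 3 5p members, beside 0.28 for all 286 5p names. For 12 3p members it was −1.69, beside −0.73 for all 271 3p names. By calls in the main test, 2 of 6 5p members were higher and 8 of 17 3p members lower. A difference between members and all names of an arm was not tested. Of 16 tested names of other imprinted miRNAs, such as those of the chromosome 19 cluster, 1 was higher and 7 lower, and of 13 on chromosome 14 outside the imprinted domain, 5 and 7.

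**Figure D3:**
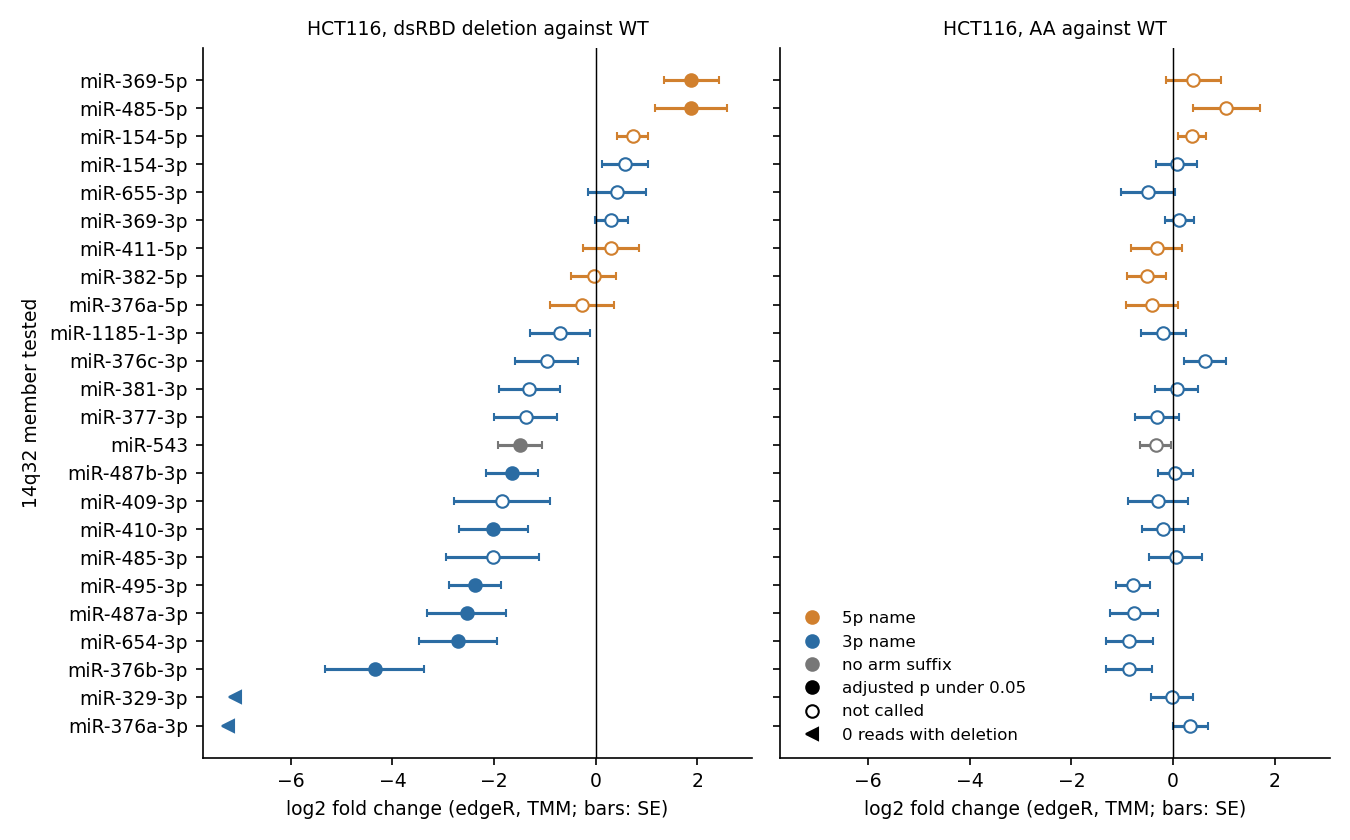
Log2 fold change (edgeR, TMM; bars are SE) of the 24 tested members in HCT116 for the dsRBD deletion (left) and AA (right) against WT, ordered by the left panel. Filled points passed an adjusted p of 0.05, and left-pointing triangles mark members with 0 reads in the deletion libraries, whose plotted position depends on the fit and is no bound. Filled points are 5p names on the right-hand side and 3p names or miR-543 on the left, and no point is filled for AA. The filled miR-485-5p, miR-487a-3p and miR-654-3p passed the filter through only the group where they were higher.

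The 11 called members are all named, although their means over the line are under 10 CPM. MiR-369-5p, whose hairpin (chr14:101065598-101065667) lies in an intron of MEG9, had 12 and 11 reads with WT, 19 and 11 with the deletion, and 12 and 15 with AA. In CPM this was 3.17 ± 0.206 with WT, 13.0 ± 9.36 with the deletion and 4.17 ± 0.320 with AA (mean ± SD, n = 2 each). Both deletion libraries were above both WT libraries, far apart from each other. The log2 fold change was 1.88 ± 0.55 (SE, adjusted p = 0.0117, edgeR), and without deletion replicate 1 the adjusted p of edgeR no longer passed 0.05.

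MiR-485-5p, studied in neurons as a regulator of synaptic proteins, was the other member that rose. It had 3 and 5 reads with WT, 6 and 5 with the deletion and 8 and 7 with AA, and the CPM were 1.13 ± 0.531, 4.55 ± 2.33 and 2.34 ± 0.409. The deletion libraries lay above WT, on 11 reads in all. Its log2 fold change of 1.88 ± 0.71 (adjusted p = 0.0404, edgeR) was called under only 3 of 13 alternatives. Under spike-in scaling neither was called, at 0.14 for miR-369-5p and 0.16 for miR-485-5p.

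In the miR-376 family, whose precursors are known substrates of A-to-I editing in brain, miR-376a-3p and miR-376b-3p fell, and no test compared members with each other. MiR-376a-3p had 26 and 24 reads with WT, 0 and 0 with the deletion, and 31 and 25 with AA. Against the floor of 3 reads over the deletion group it was at least 6.15-fold lower (adjusted p = 0.000794, edgeR). MiR-376b-3p had 23 and 38 reads with WT, 1 and 0 with the deletion and 12 and 18 with AA, a log2 fold change of −4.35 ± 0.98 (adjusted p = 0.00278, edgeR). Its pooled ratio of WT to deletion was 22.5, with an exact 95% counting interval of 3.89 to 904. Without deletion replicate 2 its adjusted p in edgeR was 0.0539.

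MiR-376c-3p, with a different seed and a hairpin in the same stretch (chr14:101039690-101039755), was not called. It had 24 and 25 reads with WT, 7 and 2 with the deletion, and 33 and 34 with AA, and in CPM 1 deletion library, at 7.23, lay within the WT range and the other, at 1.16, below it (log2 fold change −0.96 ± 0.62, adjusted p = 0.198, edgeR). The opposite strand miR-376a-5p had 16 and 10, 2 and 6, and 11 and 6 reads, a log2 fold change of −0.27 ± 0.63. These counts may share reads, since the sources used here do not say how reads matching several names were counted.

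MiR-329-3p, which is made from 2 hairpins of the cluster, had 31 and 15 reads with WT, 0 and 0 with the deletion and 16 and 24 with AA. It was at least 5.66-fold lower with the deletion, again against 3 reads over the group (adjusted p = 0.00193, edgeR). MiR-495-3p (hairpin chr14:101033755-101033836, in an intron of MEG8) had 50 and 50 reads with WT, 3 and 4 with the deletion and 32 and 19 with AA. Its CPM were 13.8 ± 1.75, 2.71 ± 0.550 and 8.05 ± 3.50, and the 3 forms did not overlap. The log2 fold change of −2.38 ± 0.51 (adjusted p = 0.00221, edgeR) was called under each of the 15 alternatives run for it, as those of miR-329-3p and miR-376a-3p were under each of their 14.

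MiR-543, next to miR-495 in the genome (hairpin chr14:101031987-101032064), had 39 and 30 reads with WT, 3 and 6 with the deletion and 23 and 25 with AA. The deletion lowered its CPM from 9.42 ± 0.554 to 3.29 ± 0.270 (log2 fold change −1.49 ± 0.43, adjusted p = 0.0116, edgeR). MiR-654-3p had 16 and 21, 1 and 1, and 9 and 9 reads (−2.71 ± 0.77, adjusted p = 0.0111). MiR-410-3p, the last but one hairpin of the cluster, had 21 and 13, 1 and 2, and 11 and 15 reads (−2.01 ± 0.68, adjusted p = 0.0245). In all 3 the deletion libraries were below every other HCT116 library, on no more than 9 reads in total for any of them. The miR-410-3p call was lost under 5 of 14 alternatives (library totals, DESeq2, and without WT replicate 1 or either deletion replicate). That of miR-543 was lost under 3 of 15 (library totals, DESeq2, and without deletion replicate 2), and that of miR-654-3p under 2 of 13 (without WT replicate 2 or deletion replicate 2).

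The relatives miR-487a-3p and miR-487b-3p both fell, and miR-154-3p did not. MiR-487a-3p had 17 and 16 reads with WT, 1 and 1 with the deletion and 10 and 7 with AA (−2.53 ± 0.78, adjusted p = 0.0155, edgeR). MiR-487b-3p had 30 and 29, 1 and 6, and 26 and 28 reads (−1.64 ± 0.52, adjusted p = 0.0173, edgeR). The miR-487a-3p call was lost under DESeq2 and without deletion replicate 2, and the miR-487b-3p call under library totals and without deletion replicate 1. MiR-154-3p, which has the seed of miR-487a-3p, had 20 and 20, 9 and 13, and 23 and 14 reads, a log2 fold change of 0.58 ± 0.45 with an adjusted p of 0.281 in edgeR. MiR-487a-3p reached the filter in both libraries only of WT, where it was higher, so its call describes a member selected for that group. That it and miR-154-3p ended on different sides of the threshold therefore shows no contrast within 1 seed, and the difference between them was not tested.

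The 2 most abundant members were among the 13 not called. MiR-369-3p, known to bind the AU-rich element of TNF mRNA, had 52 and 35 reads with WT, 12 and 28 with the deletion and 32 and 52 with AA. Its CPM of 11.8 ± 1.80, 14.3 ± 2.72 and 12.9 ± 3.34 overlapped between all forms (deletion against WT 0.31 ± 0.32, adjusted p = 0.419, edgeR). MiR-154-5p had 37 and 27, 15 and 24, and 36 and 37 reads, and its CPM of 8.72 ± 0.837 with WT and 14.7 ± 1.11 with the deletion did not overlap (0.73 ± 0.30, adjusted p = 0.0559, edgeR). MiR-381-3p had 40 and 32, 0 and 11, and 32 and 35 reads (−1.30 ± 0.61, adjusted p = 0.0820). All 11 of its deletion reads came from replicate 2. MiR-382-5p was at −0.04 ± 0.44, and the other 6 members not called ranged from −2.03 for miR-485-3p to 0.42 for miR-655-3p.

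**Figure D4:**
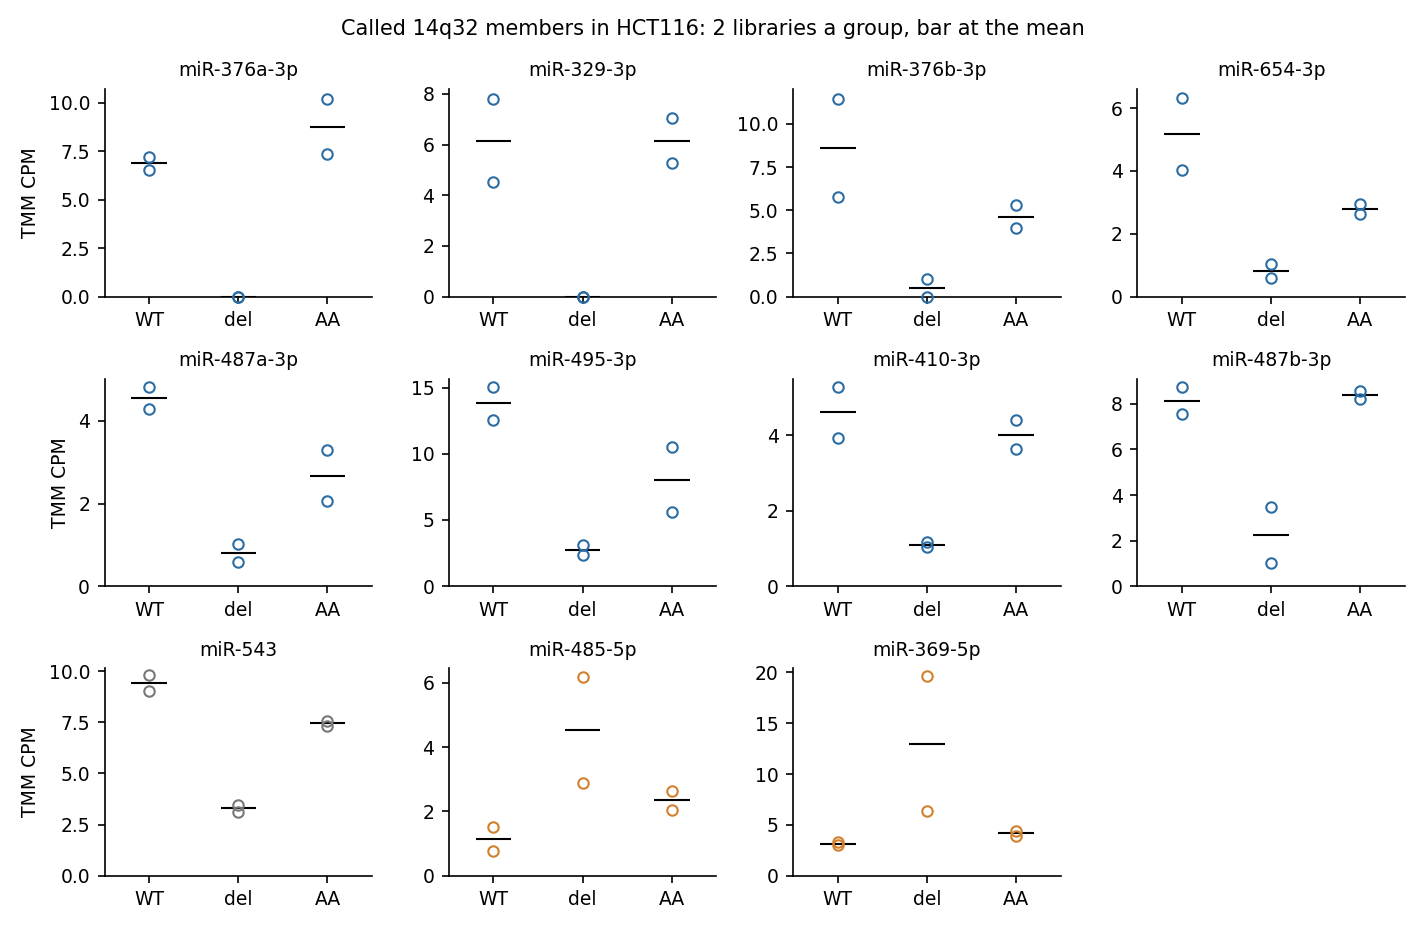
TMM-scaled CPM of the 11 called members in each HCT116 library (circles, 2 per form; short bars are means) with WT, the dsRBD deletion (del) and AA. The 9 lower members sit below both WT libraries in both deletion libraries, miR-376a-3p and miR-329-3p at 0, and the AA libraries of miR-376a-3p, miR-329-3p and miR-487b-3p lie in or above the WT range.

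The call count depended on single libraries and on scaling. Without deletion replicate 2 it fell, and so did the share of all names called. Without any other single library it changed little, while the share of all names again fell. Each of these fits leaves a group with 1 library, so no counts are given for them here. DESeq2 called 7 (1 higher and 6 lower), and 179 higher and 254 lower of all 795 names. Scaling by library totals called 3 higher and 6 lower, beside 317 and 198 of all names, whose median was then 0.52. Upper-quartile factors called 3 and 9, beside 281 and 231, with that median at 0.27. Spike-in scaling called 0 higher and 21 lower of the 24, beside 7 and 598 of all names, with their median at −1.78.

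Of the 53 members too low to test, 19 are 3p names, and 11 of these had no read in either deletion library, while 1 had none in either WT library. For the 30 untested 5p members these numbers were 8 and 5, and for the 4 without suffix 4 and 0. The WT libraries were deeper, at 3 reads to 0.755 and 0.903 CPM against 3.10 and 1.74 CPM in the deletion libraries, so counts of absent members are not comparable between forms. Within a form both arms share that depth, but absence also depends on how high a member is to begin with. A difference between the arms in these counts was not tested. MiR-323a-3p had 12 and 15 reads with WT, 0 and 0 with the deletion and 6 and 8 with AA, and miR-411-3p 10 and 7, 0 and 0, and 5 and 8.

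Arm use was tested within hairpins, as the change of the ratio of 3p to 5p reads with the library as a block. Of the 229 HCT116 hairpins with 10 reads per arm in 2 libraries, 62.4% changed with the deletion (15.7% towards 3p and 46.7% towards 5p), and the median log2 change was −0.87. The cluster had 3 such hairpins, miR-154, miR-369 and miR-376a. MiR-369 moved towards 5p by −1.50 ± 0.60 (adjusted p = 0.0328, edgeR), from 52 and 35 3p reads beside 12 and 11 5p reads with WT to 12 and 28 beside 19 and 11 with the deletion. The change rested on deletion replicate 1: without that library it was −0.56 with an adjusted p of 0.475 in edgeR, and without either WT library it also missed the threshold (0.239 and 0.101). With a minimum of 1 read per arm, which enters more hairpins, its adjusted p in edgeR was 0.184.

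MiR-376a moved towards 5p as well (adjusted p = 0.0017, edgeR), on 0 3p reads with the deletion. Its 3p name collects reads of 2 hairpins and its 5p name those of 1, and without deletion replicate 2 the adjusted p of edgeR was 0.0661. MiR-154 did not pass, at −0.15 ± 0.55 (adjusted p = 0.831, edgeR), with 20 and 20 3p reads beside 37 and 27 5p reads with WT and 9 and 13 beside 15 and 24 with the deletion. The SE leaves room for a change of either sign.

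With AA no tested member passed the threshold. In HCT116 the edgeR fit called 0 of 24 members, beside 7.42% of all 795 names, and 1 member had an unadjusted p under 0.05. DESeq2 also called 0. The median log2 fold change of the members was −0.19 (all names −0.03), with a range from −0.87 for miR-376b-3p to 1.05 for miR-485-5p. MiR-495-3p, at 32 and 19 reads beside 50 and 50, was the member with that p (−0.79 ± 0.34, unadjusted p = 0.0407, adjusted p = 0.214, edgeR). Under spike-in scaling 3 of the 24 members were lower with AA, beside 270 of all 795 names (34.0%), whose median was −0.63. In arm use 0 of the 3 hairpins changed, beside 13.5% of all hairpins, with the changes at −0.32 ± 0.48 for miR-154, −0.28 ± 0.58 for miR-369 and 0.77 ± 0.57 for miR-376a. The comparisons of AA and of the deletion share the WT libraries.

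In HEK293T no member reached the filter within the line, so the deletion and AA were not tested against WT there, where 75.6% and 21.4% of the 626 tested names were called. The summed members had their highest mean RPM with the deletion, lowest with WT, and did not overlap between WT and either other form. On 6 to 22 reads a library this is a difference of 1.50 on the log2 scale for the deletion and 1.18 for AA. The 95% Wilson intervals overlapped, at 2.35 to 6.62 RPM for WT replicate 2, 3.20 to 13.6 for deletion replicate 1 and 3.29 to 11.9 for AA replicate 2. MiR-369-3p alone held 10 of the 22 and 7 of the 9 AA reads. Without it the AA and WT libraries overlapped in RPM, while both deletion libraries stayed above WT. Per spike-in read the deletion gave −0.05, with 0.178 and 0.319 reads per 1000 spike-in reads with WT and 0.192 and 0.289 with the deletion. No hairpin of the cluster had enough reads on both arms for a test of arm use, where 57.8% of all 180 hairpins changed with the deletion and 10.6% with AA.

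Between the lines, the members tested were lower in HEK293T WT than in HCT116 WT. The fit, made on all 12 libraries with the names common to both lines, tested 9 members and called 9 lower, beside 41.2% of 844 names lower and 73.2% called in all. Each of the 9 passed the filter through the HCT116 libraries, so this count is a description of members that are high in HCT116. Members not listed for HEK293T, such as miR-154-5p, miR-495-3p and miR-369-5p, were outside this test. MiR-369-3p, the member with the most HEK293T reads, had 52 and 35 reads in HCT116 against 2 and 6 in HEK293T. Its log2 fold change was −3.21 ± 0.48, and its pooled ratio of HCT116 to HEK293T was 8.06 by RPM (exact 95% counting interval 3.92 to 19.3). MiR-376c-3p had 24 and 25 reads against 0 and 0, and was at least 12.1-fold lower by RPM against a floor of 3 reads over the HEK293T WT group.

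The other 7 had 1 to 3 reads over both HEK293T WT libraries. Pooled ratios of HCT116 to HEK293T, with exact 95% counting intervals, were 53.4 (9.28 to 2138) for miR-381-3p and 45.2 (7.82 to 1816) for miR-376b-3p. They were 25.6 (6.82 to 215) for miR-543 and 7.66 (2.39 to 39.2) for miR-409-3p. MiR-382-5p, miR-154-3p and miR-410-3p lay between these, at 32.6, 29.7 and 25.2. The intervals are wide and overlap, so no order among the 7 can be read.

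Whether the deletion acted differently in the 2 lines was tested for the same 9 members. The edgeR contrast called 1, miR-376c-3p, beside 34.8% of 844 names, and for AA it called 0 beside 3.91%. The miR-376c-3p difference rested on 3 reads in HEK293T, 0 and 0 with WT and 1 and 2 with the deletion. MiR-369-3p, with the most reads, differed between lines by 1.33 ± 0.82 for the deletion (adjusted p = 0.238, edgeR) and by 1.66 ± 0.70 for AA (adjusted p = 0.251, edgeR).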

How the data were processed

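The deposited values are raw counts, per the file headers and the whole numbers they hold: 1 table of read counts for miRNA names and spike-in RNAs per library, for 12 libraries in 6 groups of 2. The submitters' processing notes name cutadapt, BWA and bedtools and the builds hg38 and mm10. The sources used here do not give their order or versions, the miRNA annotation, or the handling of reads that match several names.

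Spike-in reads stayed out of library sizes. Within each line, names were filtered by filterByExpr (minimum count 10), given TMM factors and tested by edgeR 4.0.16 (quasi-likelihood F test on group means, two-sided, Benjamini-Hochberg at 0.05 over all names) in R 4.3.3. Lines were compared over 12 libraries and the names listed for both. Arm use was tested as an interaction between arm and form, blocking on library, where each arm reached 10 reads in 2 libraries. SEs were the absolute log2 fold change over the square root of F. Adjusted p values are from edgeR unless another tool is named. Scripts were tested on simulated data.

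Members, lists and tests were chosen with earlier results of these data known. The rule for names took the 12 members with the highest mean CPM of each line, called members of at least 10 CPM whose groups did not overlap (up to 8 in each direction), called members between lines and called hairpins. No called member of the comparisons with WT reached 10 CPM, so those 11 were named after their values were seen, as were miR-127-3p, miR-134-5p, miR-323a-3p, miR-411-3p, miR-376a-5p, miR-409-5p, miR-485-3p, miR-487a-5p and miR-655-3p. Alternatives were other scalings and filters, DESeq2 1.42.0, a replicate block, and leaving out each library. The filter on the AA libraries, the 5p and 3p sums, the 3p share and the TMM-scaled sum were added after seeing the data. Sequences and coordinates are from RefSeq (GRCh38.p14), and gene context from GENCODE 29.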

Additional observations from a re-analysis of the deposited data

Results flagged for a closer look

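The response of miR-376c-3p to the dsRBD deletion differed between the lines by 5.84 on the log2 scale (SE 1.99, adjusted p = 0.0266, edgeR, contrast of the 2 within-line differences). In HCT116 it had 24 and 25 reads with WT and 7 and 2 with the deletion, and in HEK293T 0 and 0 with WT and 1 and 2 with the deletion. The HEK293T side is thus 3 reads against none, and the size of the contrast depends on how the fit treats the zeros. The adjusted p of edgeR was 0.0508 without HCT116 deletion replicate 2, 0.0579 without HEK293T WT replicate 1, 0.0645 without HEK293T WT replicate 2 and 0.138 without HEK293T deletion replicate 2. Over the other alternatives run it stayed between 0.0057 and 0.0496, and with a minimum mean of 5 CPM the miRNA was not tested.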

How the results depend on the processing

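Depth and scaling both limit these results: no member exceeded 52 reads in a library, and other scalings move sums and calls. The summed cluster (log2 difference of group means in RPM) moved as follows. In HCT116 the deletion gave 0.02, −2.30 per spike-in read, −0.51 TMM-scaled and −0.054 without miR-369-3p. AA gave 0.11, −0.51 per spike-in read and −0.064 TMM-scaled. In HEK293T the deletion gave 1.50 and −0.045 per spike-in read, and AA 1.18 and 0.54. The line difference was −5.71, and −7.68 per spike-in read. The 5p sum in HCT116 was 1.22 for the deletion, −1.11 per spike-in read and 0.69 TMM-scaled, and for AA 0.34, −0.29 and 0.16. The 3p sum was −0.69, −3.01 and −1.22, and −0.97 without miR-369-3p, and for AA 0.06, −0.57 and −0.12. The difference in the 3p share was −30.6 points (−35.8 without the most abundant member) for the deletion and −3.83 (−4.41) for AA. The cause was not tested where other scalings disagree.

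The count of members called for the deletion in HCT116, 11, was 21 with spike-in scaling, 5 with a mean of at least 5 CPM (10 members tested), 7 with DESeq2 and 6 to 12 when 1 library was left out. Of all names, 62.1% were called in the main test, 76.1% with spike-in scaling, 71.2% of 632 with that mean and 54.5% with DESeq2. The members' share was thus below that of all names with that mean. With any 1 library left out, the share of all names fell below that of the main test. Those fits leave a group with 1 library, so their range shows only how far the count moves. For AA, spike-in scaling called 3. Between WT of the lines a mean of at least 5 CPM left 1 member tested and 1 called. For the line difference in the deletion effect the count was 0 with that filter and 0 to 1 when 1 library was left out. For arm use with the deletion in HCT116, a minimum of 1 read per arm called 4 of 22 hairpins (23.9% of all 532) and no longer miR-369, leaving out 1 library called 1 to 2, and no hairpin of the cluster had 30 reads per arm, so that setting gave no value.

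Single members that changed sign were uncalled in the main comparison. For the deletion, spike-in scaling gave −1.18 for miR-154-3p, −1.02 for miR-154-5p, −1.44 for miR-369-3p, −1.46 for miR-411-5p and −1.32 for miR-655-3p. Library totals and upper-quartile factors gave 0.26 and 0.0081 for miR-376a-5p and 0.49 and 0.24 for miR-382-5p, and the filter on AA libraries 0.029 for the latter. With 1 library left out, miR-369-3p ranged from −0.032 to 0.35, miR-376c-3p from −2.63 to 0.0075, miR-382-5p from −0.63 to 0.067 and miR-411-5p from −0.22 to 0.71. For AA, spike-in scaling gave −0.51 for miR-154-3p, −0.20 for miR-154-5p, −0.45 for miR-369-3p, −0.17 for miR-369-5p, −0.24 for miR-376a-3p, −0.51 for miR-381-3p and −0.55 for miR-487b-3p. With 1 library left out, miR-154-3p ranged from −0.41 to 0.44, miR-369-3p from −0.18 to 0.37 and miR-487b-3p from −0.064 to 0.14. Of the single-member alternatives 613 kept direction and side of the threshold, 33 lost the call, 22 gained one and 27 changed sign.

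Same-numbered libraries did not deviate together: the correlations of their deviations were 0.147, −0.104 and −0.0487 in HCT116 and −0.0258, −0.0675 and 0.0930 in HEK293T. The numbers were therefore not treated as pairs. With the replicate block, 10 members were called for the deletion in HCT116 (1 higher, 9 lower), beside 60.1% of all names, and 0 for AA, beside 5.79%. Between the lines' WT libraries 9 were called, beside 64.8% of all names, and for the line difference in the deletion effect 1, beside 33.3%.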
